A study of Mus musculus with 12 samples.

Results

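The 8 genes described here encode surface proteins with which antigen-presenting cells stimulate or restrain T cells: Cd80, Cd86, Cd40, Icosl, Cd274, Pdcd1lg2, Cd276 and Havcr2. They were taken by gene name from the non-control probes of a one-colour Agilent mouse array, which gave 11 of 55681 probes and 8 of 34761 genes. Cd80, Icosl and Pdcd1lg2 had 2 probes each, and the other genes had 1. Each of the 11 probes passed the filter used for testing, which asks for a scanner call of well above background on the 3 arrays of some group, as did 42939 probes in all.

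The study profiled kidney macrophages in a stone model and used polarized marrow macrophages as references, with 4 groups of 3 arrays. Wild-type (WT) and homozygous op/op mice of strain B6C3Fe a/a-Csf1op/J were given glyoxylate at 80 mg/kg for 6 days. Their kidney cells carrying CD11b and CD11c were then collected by magnetic sorting. The op mutation inactivates Csf1, which encodes the macrophage growth factor M-CSF. M1 macrophages were grown ex vivo from bone marrow with LPS and GM-CSF, and M2 macrophages with IL-4 and M-CSF. The M1 and M2 groups thus differed in growth factor as well as in the polarizing agent, and the labels give them the same strain without naming the donors' genotype. The renal groups both received glyoxylate, so no comparison here measures its effect. Whether the replicates are separate mice or dishes is not stated, so a p-value here reflects only how far these samples spread, and that spread may be technical.

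A T cell needs an antigen signal together with a second, costimulatory signal, and CD80 and CD86 supply it by binding CD28. The same ligands also bind CTLA-4, which restrains the cell. ICOS ligand engages ICOS, and CD40 receives CD40 ligand from helper T cells and in turn licenses the presenting cell through NF-kB. PD-L1 (Cd274) and PD-L2 (Pdcd1lg2) bind PD-1 and dampen T-cell responses. B7-H3 (Cd276) is a B7 relative with an incompletely known partner. TIM-3 (Havcr2) is a checkpoint receptor found on myeloid cells as well as on exhausted T cells, so it is the member that is no B7 or TNF-receptor type ligand. Interferon gamma is known for inducing PD-L1, and IL-4 acting through STAT6 for inducing PD-L2, in macrophages.

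All levels are log2 processed signal minus the array's own 75th percentile, so 0 means a signal equal to that percentile and a step of 1 means a 2-fold change. Levels of different probes are not set against each other, because probes differ in efficiency. The scanner files show that WT and M1 arrays lay in the upper slide row and op/op and M2 arrays in the lower, so row and group cannot be told apart in op/op against WT or in M1 against M2. WT replicate 1 sat on a slide of its own, the other renal arrays shared another, and the marrow arrays shared one of their own. WT replicate 1 was also the only array scanned on a different day. Probes well above background made up 63.1% to 68.8% on op/op, 64.4% to 65.1% on M2, 72.6% to 75.1% on M1 and 76.1% to 79.3% on WT arrays. The median residual SD was 0.376 among renal and 0.172 among marrow arrays, and the fit pools them. Of 12 macrophage markers, 12 were well above background on all WT and all op/op arrays and 11 on all M1 and all M2 arrays (Cx3cr1 on no M2 array). Their mean level was 1.75 to 3.12 on WT and 0.74 to 0.84 on op/op arrays, and 10 of 12 were lower in op/op. Proximal tubule markers were also detected in the sorted kidney cells, 8 of 8 on all WT and 7 of 8 on all op/op arrays, and 8 were lower in op/op, from means of 2.43 to 3.37 on WT to means of 0.32 to 1.33. Distal nephron, endothelial and stromal markers were detected too, 6 of 6 of each list on all WT and all op/op arrays. Distal nephron markers averaged 0.77 to 1.79 on WT and 0.81 to 2.20 on op/op arrays, with 3 higher and 1 lower in op/op. Endothelial markers averaged 0.93 to 1.69 and 1.18 to 2.01, with 1 higher and 0 lower. Stromal markers averaged -0.07 to 0.22 and -0.53 to -0.45, with 0 higher and 3 lower. These marker counts use an adjusted p under 0.05 in op/op minus WT. By the same threshold 30.3% of all genes tested were higher and 28.1% were lower in op/op, 58.3% in either direction. Both sorting antigens were detected on every array: Itgam (CD11b) averaged 7.72 ± 0.42 in WT and 8.03 ± 0.21 in op/op, and Itgax (CD11c) 1.76 ± 0.37 and 0.15 ± 0.10 (SD, n = 3). The part of cell makeup, slide row and RNA from tubular, endothelial or stromal cells in the results below was not tested. Fewer cells of a type and less RNA per cell cannot be told apart in such bulk samples.

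In op/op against WT kidney cells, 4 of the 8 genes were lower (Cd86, Cd274, Havcr2 and Icosl), 3 were higher (Cd80, Pdcd1lg2 and Cd276) and Cd40 was not called. These calls use each gene's brighter probe and an adjusted p under 0.05. Of all genes tested, 58.3% were called in the same comparison, 30.3% higher and 28.1% lower, so most tested genes were called as well. The other probe of Cd80 and of Icosl was called in the opposite direction, and that of Pdcd1lg2 was not called. In M1 against M2 macrophages, 4 of the 8 genes were higher in M1 (Cd86, Cd274, Cd40 and Icosl) and 0 were lower, where 17.5% of all genes tested were called, 8.72% higher and 8.75% lower. Under limma's unadjusted p of 0.05, 2 genes were lower in M1, Havcr2 and Pdcd1lg2. The median difference of the 8 genes was -0.66 in op/op minus WT, against 0.16 over all genes tested, and 1.44 in M1 minus M2, against 0. The 3 arrays of each group did not overlap for 7 of 8 genes in op/op against WT, where 58.8% of all genes did not overlap, and for 7 of 8 in M1 against M2, where 51.3% did not.

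**Figure D1:**
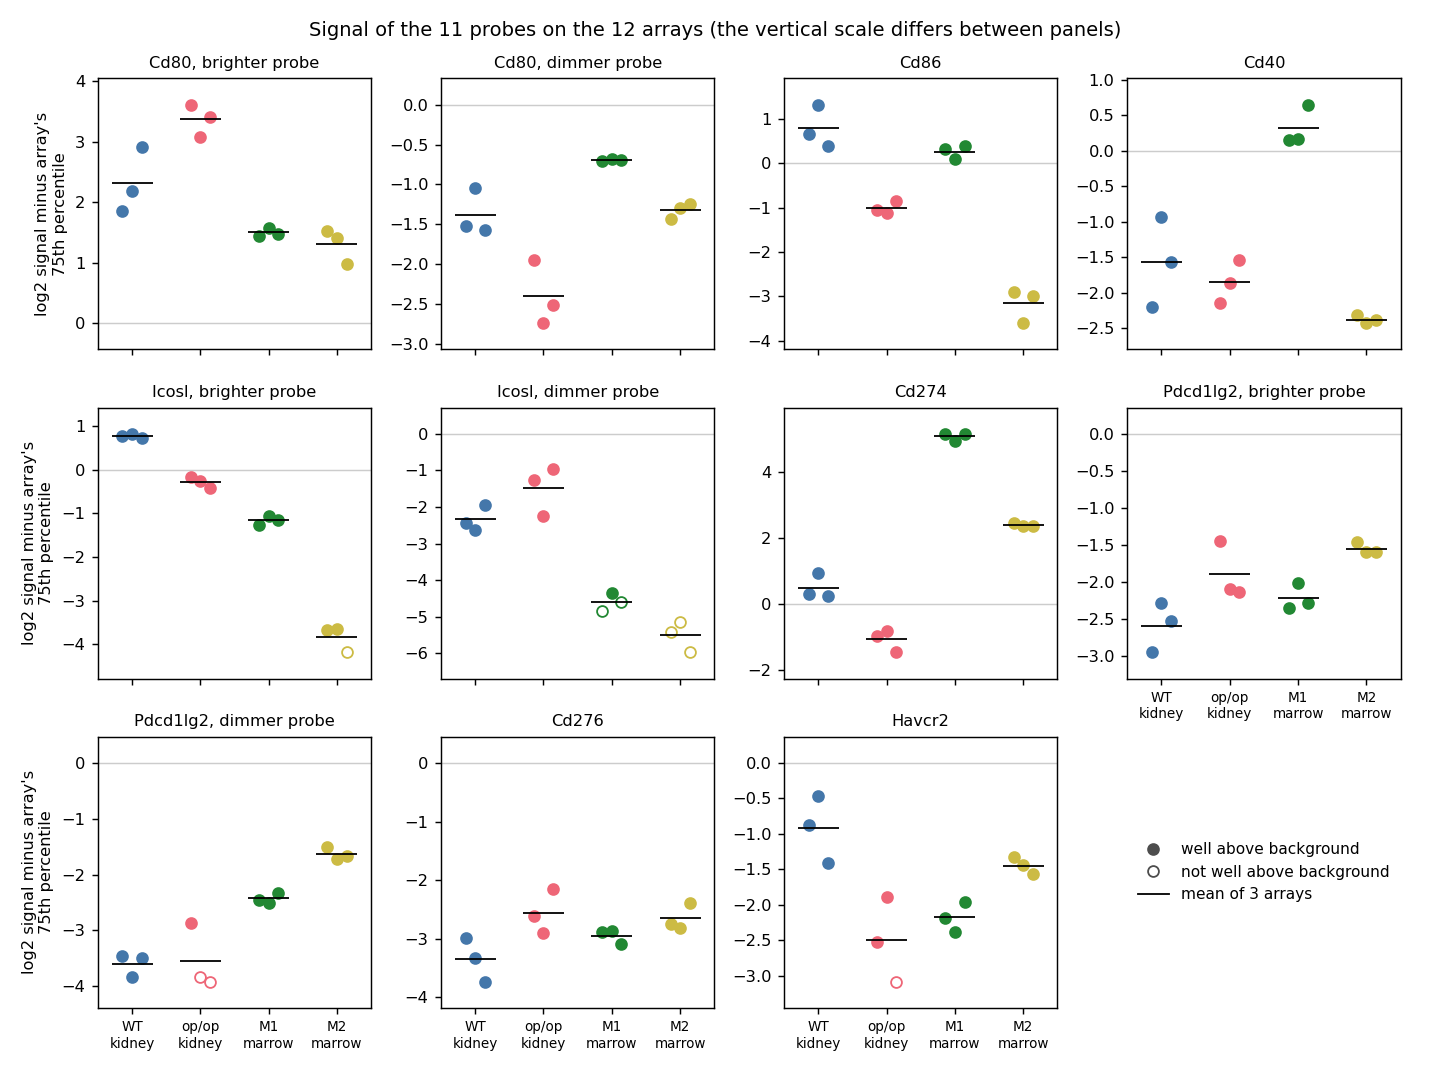
Level of each of the 11 probes (log2 processed signal minus the array's 75th percentile, vertical axis, a different scale in each panel) on the 3 arrays of each of 4 groups (horizontal axis). Points are arrays, open points were not well above background and lines are group means. Cd274 reached 4.95 to 5.17 on the M1 arrays and was lowest on the op/op arrays, and the probe pairs of Cd80 and of Icosl order WT and op/op in opposite ways.

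Cd86 (B7-2) is the CD28 ligand that resting presenting cells already carry, and it was far higher in M1 than in M2. Its probe lies at chr16:36603961-36604020 (mm9). On WT replicates 1, 2 and 4 the level was 0.66, 1.32 and 0.38, and on op/op replicates 1, 2 and 4 it was -1.05, -1.11 and -0.84. Every WT array lay above every op/op array. The op/op level was 3.45-fold lower (log2 difference -1.79 ± 0.26 SE, limma adjusted p = 0.000803). M1 replicates 2, 3 and 4 gave 0.32, 0.09 and 0.38, and M2 replicates 2, 3 and 4 gave -2.89, -3.60 and -2.98. The M1 arrays thus lay together near the 75th percentile and the M2 arrays far below it (difference 3.42 ± 0.26, adjusted p = 2.77e-06). From high to low the groups ran WT, M1, op/op and M2. WT and M1 did not differ beyond their spread (WT minus M1 0.52, 95% interval -0.04 to 1.08, adjusted p = 0.10), although without WT replicate 4 that difference was 0.73 with adjusted p = 0.0381.

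Cd80 (B7-1), the inducible partner of CD86 at CD28 and CTLA-4, gave opposite answers from its 2 probes. Both were designed on RefSeq transcript NM_009855. The brighter starts at base 1457 of the transcript (chr16:38486772-38486831, mm9) and the dimmer at base 872 (chr16:38479343-38479402, mm9). The first 30 of the 60 bases of each are shown to identify the stretches that disagree.
Cd80 brighter probe: aaaggagaggtgcctagtcttactgcaact
Cd80 dimmer probe: ttcaatacgactcgcaaccacaccattaag
On the brighter probe the WT arrays gave 1.85, 2.19 and 2.91 and the op/op arrays 3.61, 3.08 and 3.41, so op/op lay above WT on every array. The difference was 1.05 ± 0.26 (2.07-fold higher, adjusted p = 0.00728). On the dimmer probe the WT arrays gave -1.52, -1.05 and -1.57 and the op/op arrays -1.95, -2.74 and -2.51, so every op/op array lay below every WT array. The difference was -1.02 ± 0.22 (2.03-fold lower, adjusted p = 0.00351), and -0.38 under normexp background correction.

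In the marrow macrophages neither Cd80 probe was called. The brighter probe gave 1.44, 1.58 and 1.48 in M1 and 1.52, 1.41 and 0.98 in M2, which overlap (difference 0.20, 95% interval -0.38 to 0.77, adjusted p = 0.702). The dimmer probe gave -0.71, -0.68 and -0.69 in M1 and -1.43, -1.30 and -1.25 in M2. These arrays do not overlap, but the difference of 0.63 ± 0.22 missed the threshold (adjusted p = 0.0664). It passed without WT replicate 2 (adjusted p = 0.0487) or op/op replicate 1 (adjusted p = 0.0256), and with only the 2 groups in the fit (adjusted p = 0.00196), where the wider spread of the renal arrays is left out. On the brighter probe the groups ran op/op, WT, M1 and M2 from high to low, and on the dimmer probe M1, M2, WT and op/op. Only M1 and M2 on either probe, and M2 and WT on the dimmer, were neighbours that did not differ beyond their spread. Cd80 therefore has no direction in op/op against WT that holds on both probes. Averaging them gave a difference of 0.01 (adjusted p = 0.952).

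Cd40, the receptor through which helper T cells activate presenting cells, separated M1 from M2 but not op/op from WT. Its probe lies at chr2:164897085-164897144 (mm9). The M1 arrays gave 0.15, 0.17 and 0.65 and the M2 arrays -2.32, -2.43 and -2.39. M1 was 6.50-fold higher (2.70 ± 0.29, adjusted p = 4.44e-05). The WT arrays gave -2.20, -0.94 and -1.57 and the op/op arrays -2.14, -1.86 and -1.54, with the op/op values inside the WT range. The difference of -0.28 ± 0.29 had an interval of -0.91 to 0.35 (adjusted p = 0.413), and its sign turned without WT replicate 2 (0.03). M1 stood above the other 3 groups. WT and op/op did not differ beyond their spread. Every op/op array lay above every M2 array, but that difference was not called (0.53, adjusted p = 0.105). It passed in 6 of 24 other settings. These were leaving out WT replicate 1 (adjusted p = 0.0426) or WT replicate 2 (adjusted p = 0.0488) and normexp correction (0.62, adjusted p = 0.00289). The others were only the 2 groups in the fit (adjusted p = 0.0257), array weights (adjusted p = 0.0218) and the replicate block (adjusted p = 0.0388). WT was called above M2 (0.81, adjusted p = 0.0278), but the call was lost without WT replicate 2 (0.50, adjusted p = 0.113), WT replicate 4 (adjusted p = 0.06) or each M2 array in turn (adjusted p = 0.0534 to 0.0693).

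Icosl encodes the ICOS ligand, and its 2 probes were designed on different transcript records. The brighter was designed on RefSeq NM_015790 (chr10:77542211-77542270, mm9) and the dimmer on AF394451 (chr10:77545941-77546001, mm9), a form named GL50-B that the array annotation describes as alternatively spliced. The first 30 bases of each probe are shown because the probes gave differences of opposite sign in op/op minus WT.
Icosl brighter probe: tagatggggcatagtgacttctagaaacct
Icosl dimmer probe: gactatttgattccaagatatttgatgtct
On the RefSeq probe the WT arrays gave 0.76, 0.82 and 0.72 and the op/op arrays -0.16, -0.25 and -0.43. Both groups were tight and did not overlap, with op/op 2.07-fold lower (-1.05 ± 0.18, adjusted p = 0.00141). The M1 arrays gave -1.26, -1.06 and -1.16 and the M2 arrays -3.68, -3.64 and -4.18, the last not well above background. M1 was 6.37-fold higher than M2 (2.67 ± 0.18, adjusted p = 1.05e-06), or 1.45 on the log2 scale with normexp correction. The 4 groups ran WT, op/op, M1 and M2, and each neighbour differed beyond the spread.

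On the GL50-B probe of Icosl the WT arrays gave -2.44, -2.62 and -1.95 and the op/op arrays -1.26, -2.25 and -0.97. The op/op values were mostly higher, but op/op replicate 2 lay within the WT range. The difference of 0.85 ± 0.33 passed the threshold narrowly (adjusted p = 0.048). It was kept without WT replicate 4, op/op replicate 2 or M2 replicate 4, and lost without each of the other 9 arrays (0.58 to 0.85, adjusted p = 0.0511 to 0.171). In the marrow cells 1 of 3 M1 arrays and 0 of 3 M2 arrays were well above background on this probe, so M1 against M2 was not tested. Against M2 the probe was at least 3.33-fold higher in WT (adjusted p = 1.67e-05) and at least 5.98-fold higher in op/op (adjusted p = 1.03e-06). These bounds set the M2 arrays at their lowest signal called well above background and hold for the percentile-scaled signals: with normexp correction the log2 differences were 1.07 and 1.78, which are smaller.

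**Figure D2:**
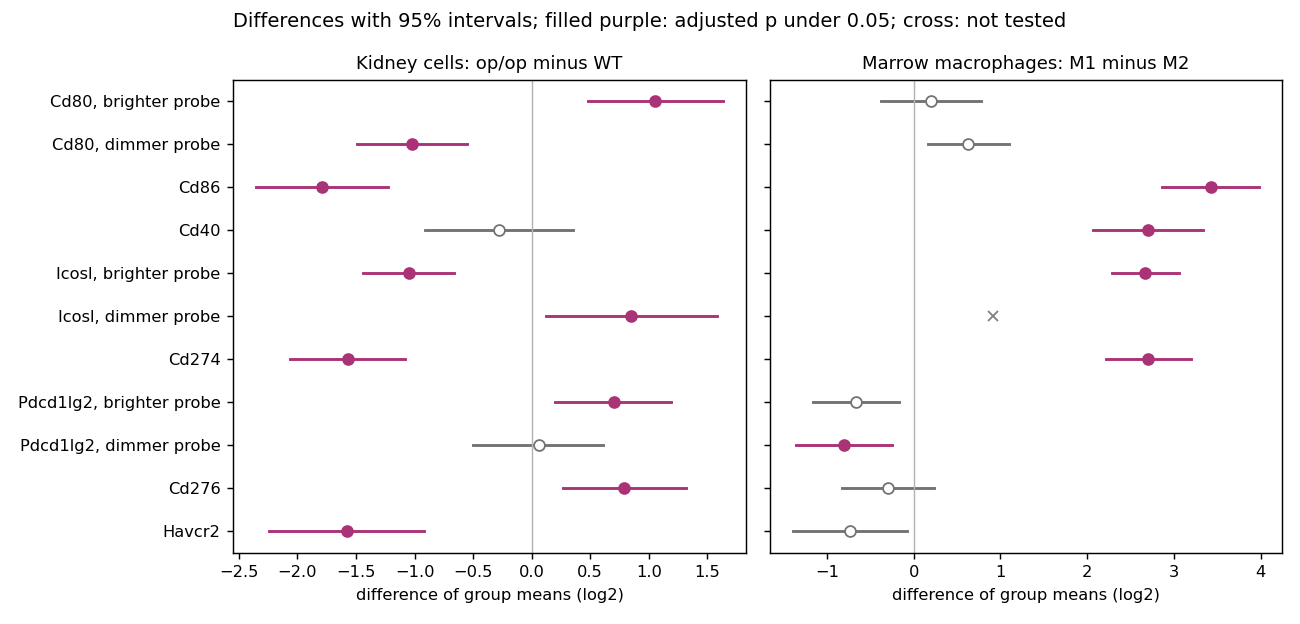
Difference of group means on the log2 scale (horizontal axis) with 95% intervals from the limma fit for each of the 11 probes (rows), in op/op minus WT (left) and M1 minus M2 (right). Filled purple points had an adjusted p under 0.05, open grey points did not, and the cross was not tested. Cd86, Cd274 and the brighter Icosl probe lie below 0 on the left and above 0 on the right, and the Cd80 and Icosl probe pairs lie on opposite sides of 0 on the left.

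Cd274 encodes PD-L1, the main ligand of PD-1 outside lymphoid tissue. Its probe lies at chr19:29462363-29462422 (mm9). The M1 arrays gave 5.15, 4.95 and 5.17 and the M2 arrays 2.46, 2.36 and 2.36. M1 was 6.49-fold higher (2.70 ± 0.22, adjusted p = 6.49e-06). The WT kidney arrays gave 0.31, 0.94 and 0.24 and the op/op arrays -0.96, -0.81 and -1.47, again without overlap. The op/op level was 2.98-fold lower than WT (-1.57 ± 0.22, adjusted p = 0.000781). All 4 groups were separated in the order M1, M2, WT and op/op. WT lay 24.2-fold below M1 (-4.59 ± 0.22, adjusted p = 8.74e-08) and 3.72-fold below M2 (-1.89 ± 0.22, adjusted p = 3.61e-05). The op/op cells lay 71.9-fold below M1 and 11.1-fold below M2. The marrow arrays shared a slide that held no kidney array, so slide and cell source cannot be told apart in these comparisons.

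Pdcd1lg2 encodes PD-L2, the second PD-1 ligand, and is the neighbour of Cd274: the RefSeq start sites of the pair lie 43481 bases apart on chromosome 19 (GRCm38.p6). Its 2 probes overlap by 57 of 60 bases (chr19:29545470-29545529 and chr19:29545473-29545532, mm9) and differ within the overlap at 2 positions, T50C and A55G. In these the base of the RefSeq NM_021396 probe comes first, then its position from that probe's 5′ end, then the base of the AF142780 probe. Bases 38 to 57 are shown with the differing bases in capitals.
Pdcd1lg2 NM_021396 probe: taagcaacacgtTaagtAcc
Pdcd1lg2 AF142780 probe: taagcaacacgtCaagtGcc
The AF142780 probe was the brighter. It gave -2.95, -2.29 and -2.53 on the WT and -1.45, -2.10 and -2.14 on the op/op arrays, so op/op lay higher without overlap (0.70 ± 0.23, 1.62-fold, adjusted p = 0.0227). That call was lost without WT replicate 1 (0.52, adjusted p = 0.0746), without op/op replicate 1 (0.47, adjusted p = 0.0888), with only the 2 groups in the fit (adjusted p = 0.0884) and with array weights (0.40, adjusted p = 0.153). The RefSeq probe gave -3.47, -3.84 and -3.50 on the WT and -2.87, -3.84 and -3.92 on the op/op arrays, of which only op/op replicate 1 was well above background. Its difference was 0.06 (95% interval -0.50 to 0.61, adjusted p = 0.855), and the sign turned without op/op replicate 1 (-0.28) or WT replicate 2 (-0.06). With normexp correction it was 0.42 and passed (adjusted p = 0.0348).

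In the marrow cells every M2 array lay above every M1 array on both Pdcd1lg2 probes. The AF142780 probe gave -2.35, -2.01 and -2.28 in M1 and -1.46, -1.59 and -1.60 in M2, and the RefSeq probe -2.45, -2.51 and -2.33 and -1.50, -1.72 and -1.66. The groups were tight on both probes. The first difference missed the threshold (M1 minus M2 -0.66 ± 0.23, adjusted p = 0.0678) and the second passed it (-0.80 ± 0.25, adjusted p = 0.0479). The first passed without WT replicate 1 (adjusted p = 0.0371) or op/op replicate 1 (adjusted p = 0.0313). It also passed with only the 2 groups in the fit (adjusted p = 0.00513) and with array weights (adjusted p = 0.00206). The same held with normexp correction (-0.55, adjusted p = 0.0078) and with the mean of both probes (-0.73, adjusted p = 0.0303). Of 26 other settings, which include the RefSeq probe in its place, 9 passed and 17 did not. The second was lost without WT replicate 2, WT replicate 4 or each marrow array in turn (adjusted p = 0.0504 to 0.149). On the RefSeq probe the order was M2, M1, op/op and WT, the last 2 not separated. There op/op minus M1 was -1.11 (adjusted p = 0.00166), but 0 with normexp correction (adjusted p = 0.992). On the AF142780 probe the order was M2, op/op, M1 and WT, and no neighbours differed beyond their spread.

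The upstream windows of Cd274 and Pdcd1lg2 are shown because the neighbours had opposite signs in M1 minus M2. Each is the 250 bases before the RefSeq start site on the plus strand (GRCm38.p6), chr19:29367188-29367437 for Cd274 and chr19:29410669-29410918 for Pdcd1lg2, with motif matches in capitals.
Cd274 window: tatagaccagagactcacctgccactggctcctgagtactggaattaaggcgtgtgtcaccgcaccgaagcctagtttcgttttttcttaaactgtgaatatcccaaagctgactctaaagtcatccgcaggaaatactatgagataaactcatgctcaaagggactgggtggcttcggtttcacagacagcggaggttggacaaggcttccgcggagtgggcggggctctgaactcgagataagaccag
Pdcd1lg2 window: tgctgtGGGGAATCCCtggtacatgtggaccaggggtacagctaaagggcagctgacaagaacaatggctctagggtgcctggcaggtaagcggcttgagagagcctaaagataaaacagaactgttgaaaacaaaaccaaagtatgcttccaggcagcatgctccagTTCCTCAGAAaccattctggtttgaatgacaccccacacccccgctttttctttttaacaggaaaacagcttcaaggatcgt
The search, on both strands, was for TTC and GAA with any 4 bases between them (the STAT6 type), for GAAA and GAAA with any 2 between (an interferon response core), and for GGG and CC with any 5 between (NF-kB). Pdcd1lg2 held a STAT6 type match, TTCCTCAGAA, at bases -82 to -73 from the start site, and an NF-kB type match, GGGGAATCCC, at -244 to -235. Of 32851 RefSeq promoter windows, which run to 50 bases past the start, 6.95% held the STAT6 letters and 50.8% the NF-kB letters. The interferon core was in 3.44%. The Cd274 window held none of the 3, which says only that these letters are not in these bases. Of the 6 members with a promoter entry, Cd80 and Icosl had 2 NF-kB type matches each, Cd276 had 9, some of them overlapping, and Havcr2 had 0 matches of these kinds.

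Cd276 (B7-H3), a B7 relative found mainly on non-lymphoid cells, was dim in every group and varied little. Its probe spans chr9:58372107-58372150 (mm9) as annotated. The WT arrays gave -2.98, -3.33 and -3.73 and the op/op arrays -2.61, -2.91 and -2.15, the groups meeting closely without overlap. The op/op level was 1.73-fold higher (0.79 ± 0.24, adjusted p = 0.0171). The call was lost without WT replicate 4 (0.60, adjusted p = 0.0515) or op/op replicate 4 (0.59, adjusted p = 0.0655), and with only the 2 groups in the fit (adjusted p = 0.0669). M1 arrays lay between -3.09 and -2.87 and M2 arrays between -2.82 and -2.39 (M1 minus M2 -0.30, 95% interval -0.83 to 0.23, adjusted p = 0.488). From high to low the groups ran op/op, M2, M1 and WT, and no neighbours differed beyond their spread.

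Havcr2 (TIM-3) was higher in WT than in op/op kidney cells. Its probe lies at chr11:46294675-46294734 (mm9). The WT arrays gave -0.87, -0.47 and -1.41 and the op/op arrays -2.52, -1.89 and -3.08, the last not well above background. The groups did not overlap, and op/op was 2.99-fold lower (-1.58 ± 0.30, adjusted p = 0.00224), or -0.92 on the log2 scale with normexp correction. M1 arrays gave -2.19, -2.38 and -1.96 and M2 arrays -1.33, -1.44 and -1.57. M2 lay above M1 on every array, but the difference of -0.73 ± 0.30 missed the threshold (adjusted p = 0.125) except with only the 2 groups in the fit (adjusted p = 0.00608) or with array weights (adjusted p = 0.00864). The groups ran WT, M2, M1 and op/op, and no neighbours differed beyond their spread.

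For the 3 genes with 2 probes, the brighter probe's level minus the dimmer's was compared between groups on each array. For Cd80 this gap was 3.24 to 4.47 on WT and 5.56 to 5.92 on op/op arrays, and for Icosl 2.68 to 3.43 on WT and 0.54 to 1.99 on op/op. Neither gene's groups overlapped. For Pdcd1lg2 the gap was 0.51 to 1.54 on WT and 1.42 to 1.78 on op/op arrays, which overlap. In the marrow cells the Pdcd1lg2 gap was 0.05 to 0.50 in M1 and 0.04 to 0.13 in M2, and the Cd80 gap 2.16 to 2.26 and 2.23 to 2.94. The 2-sided exact permutation test gave p = 0.1 for Cd80 and for Icosl in op/op against WT, the smallest value that 3 against 3 arrays allow, and 0.2 after Benjamini-Hochberg adjustment over 6 such tests.

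**Figure D3:**
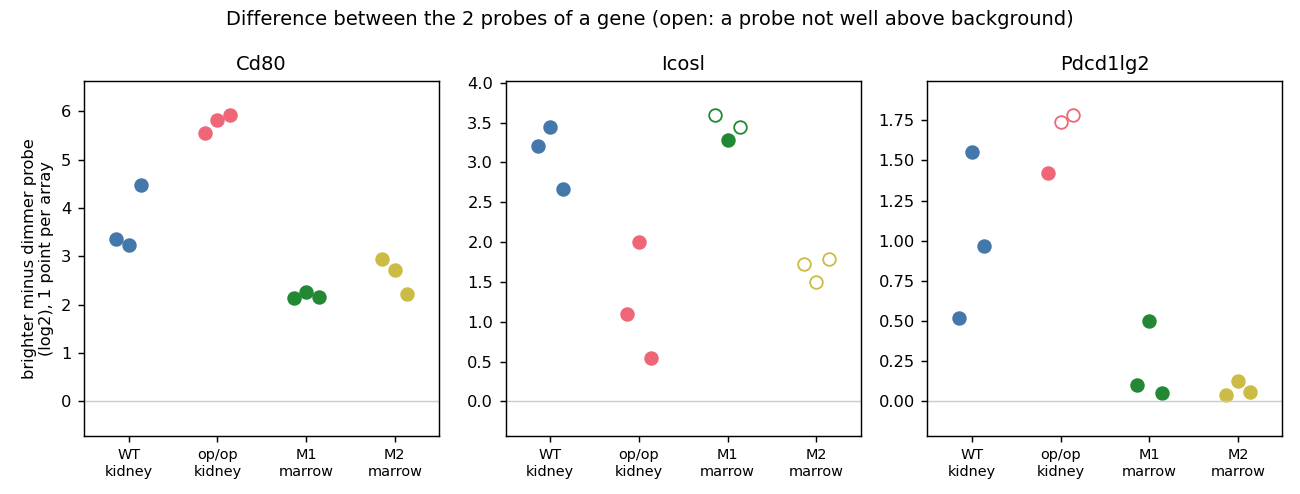
Level of the brighter probe minus that of the dimmer probe of the same gene on each array (log2, vertical axis) by group (horizontal axis) for Cd80, Icosl and Pdcd1lg2. Open points mark arrays on which a probe was not well above background. The op/op arrays stand above the WT arrays for Cd80 and below them for Icosl, and the marrow arrays lie close to 0 for Pdcd1lg2.

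The kidney cells were also set against each marrow reference. WT minus M1 was called for 5 of 8 genes (Cd80, Icosl and Havcr2 higher in WT, Cd274 and Cd40 lower), against 58.6% of all genes, 33.4% higher and 25.3% lower. WT minus M2 was called for 7 of 8 (Cd86, Icosl, Cd80 and Cd40 higher, Cd274, Pdcd1lg2 and Cd276 lower), against 63.8%, 36.2% higher and 27.7% lower. For op/op minus M1 it was 5 of 8 (Cd80 and Icosl higher, Cd274, Cd86 and Cd40 lower), against 81.3%, 46% higher and 35.3% lower. For op/op minus M2 it was 5 of 8 (Icosl, Cd86 and Cd80 higher, Cd274 and Havcr2 lower), against 83.2%, 46.9% higher and 36.3% lower. The members' share was near the background in WT minus M1, above it in WT minus M2 and below it in both op/op comparisons. Besides the Cd274 gaps given above, Icosl stood 24.2-fold higher in WT and 11.7-fold higher in op/op than in M2, and Cd86 15.4-fold and 4.45-fold higher. With normexp correction the op/op minus M2 differences fell from 3.55 to 2.26 for Icosl and from 2.16 to 1.43 for Cd86. The calls with Cd80 hold on its brighter probe only: on the dimmer probe WT minus M1 was -0.68 and op/op minus M1 was -1.71. The RefSeq probe of Pdcd1lg2 was called lower in the kidney cells where its brighter probe was not, at -1.17 in WT minus M1 (adjusted p = 0.00219), -1.11 in op/op minus M1 and -1.92 in op/op minus M2 (adjusted p = 2.65e-05). With normexp correction these were -0.42, 0 and -0.59. Several calls rested on single arrays. Cd80 in WT minus M1 was lost without WT replicate 4 (0.52, adjusted p = 0.0727), M1 replicate 2 (adjusted p = 0.0576) or M1 replicate 4 (adjusted p = 0.052). Cd276 in WT minus M2 was lost without WT replicate 4 (-0.51, adjusted p = 0.0972) or M2 replicate 4 (-0.57, adjusted p = 0.0974). On its brighter probe Pdcd1lg2 in op/op minus M2, -0.35 and not called, passed without op/op replicate 1 (-0.57, adjusted p = 0.0278). Havcr2 in op/op minus M2 was -1.05 (adjusted p = 0.00653), -0.43 with normexp correction, and missed the threshold with slide as a random block (adjusted p = 0.0624).

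Other ligands and partners of antigen-presenting cells were followed as a list of 18 genes, of which 16 were on the array. In op/op minus WT, 14 were tested, 10 were lower and 1 was higher, with a median of -1.06 against 0.16 over all genes tested. Of all genes tested, 58.3% were called and 28.1% were lower. Sirpa, the inhibitory receptor for CD47, was lower at 2.86 ± 0.11 in op/op against 4.47 ± 0.12 in WT (adjusted p = 0.000179). Cd83, an activation marker of dendritic cells, was 1.40 ± 0.17 against 3.31 ± 0.81 (adjusted p = 0.00129), and Vsir (VISTA), a B7-like checkpoint protein, -0.28 ± 0.28 against 1.34 ± 0.68 (adjusted p = 0.00167). Pvr, the ligand of CD226 and TIGIT, was lower too (adjusted p = 0.00178), by -1.55 and by -0.54 with normexp correction, and 1 of 3 op/op arrays fell short of the detection call. The gene that was higher, named after its value was seen, was Tnfrsf14, the receptor HVEM that binds BTLA (1.11 ± 0.19 against 0.61 ± 0.25, adjusted p = 0.0483). Its call held only without WT replicate 2 or op/op replicate 2 and was lost without each of the other 10 arrays (0.36 to 0.51, adjusted p = 0.0518 to 0.147), and the mean of its probes turned the sign (-0.36). Dendritic cell markers averaged 0.52 to 0.61 on WT and 0.30 to 0.51 on op/op arrays, with 2 of 12 higher and 3 lower. The calls of the list were 6 in place of 11 without op/op replicate 1, and also 6 with only the 2 groups in the fit.

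In M1 minus M2, 15 of those ligand genes were tested, 8 were higher and 3 lower, where 17.5% of all genes were called, 8.72% higher and 8.75% lower. Fgl2, a secreted ligand of inhibitory receptors, was 0.29 ± 0.43 in M1 and -3.26 ± 0.20 in M2 (adjusted p = 6.8e-06), and Lgals9, which encodes the TIM-3 ligand galectin-9, 3.27 ± 0.16 and 0.64 ± 0.09 (adjusted p = 4.22e-05). Icam1, the adhesion partner of LFA-1, was 0.58 ± 0.19 and -3.02 ± 0.34 (adjusted p = 0.000215). Lgals3 ran the other way, at 5.05 ± 0.25 in M1 and 6.76 ± 0.04 in M2 (adjusted p = 0.000333). The other genes lower in M1 were Vsir and Cd200r1, the receptor for CD200, named here after their values were seen. The Vsir call (-0.98, adjusted p = 0.0341) was lost on leaving out each of the 6 marrow arrays in turn (adjusted p = 0.0637 to 0.111) and with quantile normalization (adjusted p = 0.0538). The Cd200r1 call (-1.55, adjusted p = 0.047) was lost on leaving out each of the 6 marrow and 3 op/op arrays in turn (adjusted p = 0.06 to 0.13). In op/op minus WT Lgals9 was -0.73 (adjusted p = 0.0421). That call held only without WT replicate 4, op/op replicate 2 or op/op replicate 4, and was lost without each of the other 9 arrays, as without WT replicate 1 (-0.56, adjusted p = 0.135) or op/op replicate 1 (-0.39, adjusted p = 0.162).

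Of the 9 TNF-family ligands of costimulation, 8 were on the array. In op/op minus WT 6 were tested and 2 were lower, a smaller share than the 58.3% of all genes called. These were Tnfsf9 (4-1BB ligand) at 0.78 ± 0.07 in op/op against 2.44 ± 0.32 in WT (adjusted p = 0.000423), and Tnfsf13b, which encodes the B-cell factor BAFF, at -2.43 ± 0.24 against -1.42 ± 0.61 (adjusted p = 0.0126; -0.45 with normexp correction). In M1 minus M2, 17.5% of all genes were called. Of this list 5 were tested and 2 were higher in M1, Tnfsf9 (-1.29 ± 0.22 against -3.40 ± 0.10, adjusted p = 1.21e-05) and Tnfsf15, at least 3.54-fold (adjusted p = 2.42e-05), which was not well above background on any M2 array. With normexp correction the log2 differences were 1.20 for Tnfsf9 and 0.93 for Tnfsf15, the latter below that bound. Tnfsf4 (OX40 ligand) and Tnfsf18 (GITR ligand) were not tested in either comparison.

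Of 10 genes for T-cell partners of the members or of other ligands, 7 were tested in op/op minus WT, and 4 were higher and 0 lower by limma's adjusted p, where 58.3% of all genes were called and 30.3% were higher. By the unadjusted p under 0.05, 1 was lower, Cd28. Cd40lg, the ligand of CD40, was -0.89 ± 0.37 in op/op and -2.22 ± 0.15 in WT (adjusted p = 0.0015), and Ctla4, the inhibitory receptor for CD80 and CD86, -1.32 ± 0.22 and -2.32 ± 0.14 (adjusted p = 0.00639). Icos, the receptor of ICOS ligand, was -0.63 ± 0.25 and -1.37 ± 0.31 (adjusted p = 0.0392), and Cd160, a ligand of HVEM, -2.02 ± 0.32 and -3.30 ± 0.67 (adjusted p = 0.00545). This Icos call, on its brightest probe, was lost without WT replicate 1, WT replicate 2, op/op replicate 1, op/op replicate 2 or M2 replicate 2 (0.57 to 0.78, adjusted p = 0.0519 to 0.131). It was also lost with only the 2 groups in the fit (adjusted p = 0.0604), with array weights (adjusted p = 0.217) and with the replicate block (adjusted p = 0.0776). Another Icos probe was called higher too (1.23, adjusted p = 0.00873). How far that call rests on single arrays was not tested. The Ctla4 call was lost with array weights (adjusted p = 0.0615). With normexp correction the differences were 0.48 for Icos, 0.60 for Ctla4 and 0.72 for Cd160. The T-cell marker list averaged -1.50 to -0.95 on WT and -0.72 to 0.03 on op/op arrays, with 3 of 6 tested markers higher, Cd3g not well above background on any array, and B-cell markers at -1.70 to -1.44 and -1.07 to -0.61. Its part in these differences was not tested. Pdcd1, which encodes PD-1, was not tested because neither group had all its arrays well above background. In M1 minus M2 5 genes of this list were tested, where 17.5% of all genes were called and 8.75% were lower. By the brightest probes Cd28 was the gene called, at -0.67 ± 0.25 in M1 and 1.88 ± 0.21 in M2 (adjusted p = 1.56e-06). Another Icos probe was called lower in M1 (-1.21, adjusted p = 0.0207), while its brightest probe gave 0.48 (adjusted p = 0.292).

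**Figure D4:**
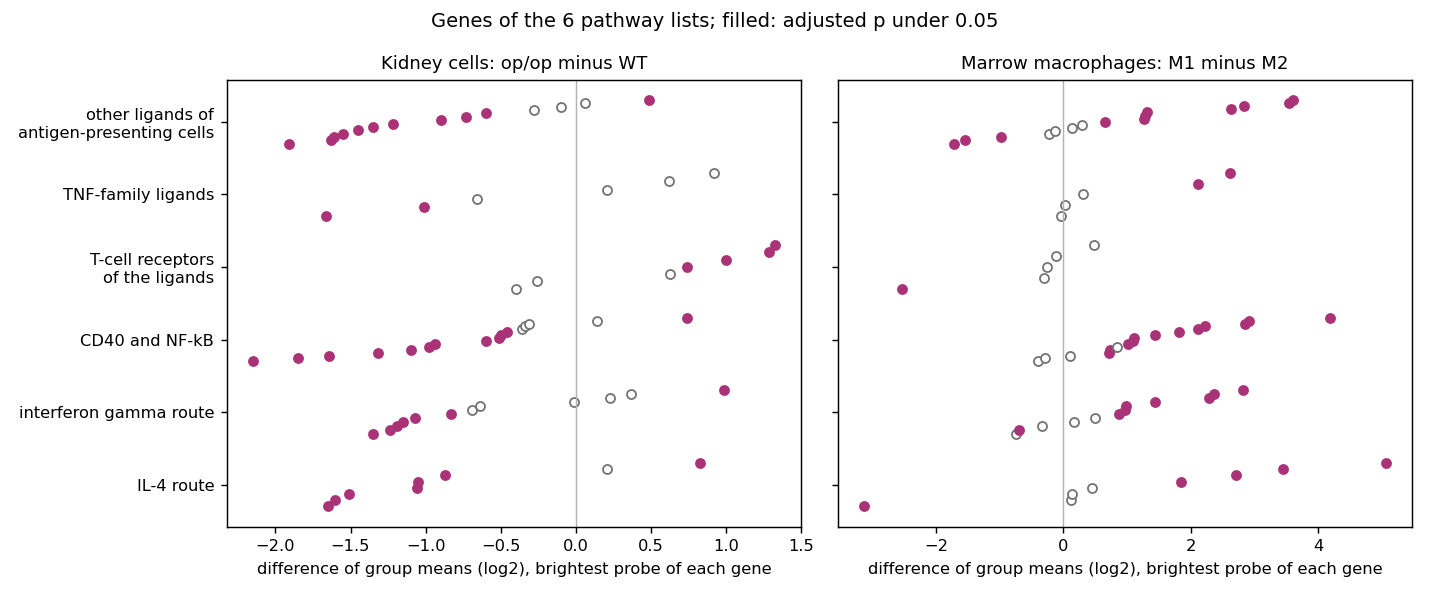
Difference of group means (log2, horizontal axis) for the tested genes of 6 pathway lists (rows), in op/op minus WT (left) and M1 minus M2 (right), each gene by its brightest probe. Filled points had an adjusted p under 0.05, and the vertical offset within a row only separates the points. The ligand, NF-kB, interferon gamma and IL-4 rows lie mostly below 0 on the left and above 0 on the right, and the T-cell receptor row does not.

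All 16 genes of the CD40 and NF-kB route were tested in both comparisons. In M1 minus M2, 12 were higher and 0 lower by limma's adjusted p, and 0 were lower by the unadjusted p under 0.05, with a median of 1.10 against 0 over all genes. Of all genes tested there, 17.5% were called and 8.72% were higher. Traf1, a signalling adaptor that CD40 recruits, was 3.95 ± 0.18 in M1 and -0.24 ± 0.02 in M2 (18.3-fold, adjusted p = 3.65e-08). Birc3, Nfkbia and Nfkbie, which encode an E3 ligase and inhibitors of this route, were higher by 2.91, 2.11 and 2.85. In op/op minus WT, 11 were lower and 1 was higher, with a median of -0.55 against 0.16 over all genes. There 58.3% of all genes were called and 28.1% were lower. Tnfaip3, which encodes the deubiquitinase A20, was 1.05 ± 0.21 in op/op and 3.20 ± 0.79 in WT (adjusted p = 0.00085), and Nfkb1 -0.94 ± 0.26 and 0.37 ± 0.30 (adjusted p = 0.000855). Relb, a subunit of the noncanonical branch named after its value was seen, was the gene that was higher (2.36 ± 0.27 against 1.62 ± 0.36, adjusted p = 0.0112), but the mean of its probes gave -0.19 (adjusted p = 0.305) and the call was lost with only the 2 groups in the fit (adjusted p = 0.0671). With only the 2 groups in the fit 7 of the 16 were called in op/op minus WT in place of 12.

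The 12 genes of the interferon gamma route to PD-L1 were all tested. In M1 minus M2, where 17.5% of all genes were called and 8.72% were higher, 7 were higher and 1 lower. Irf9 (1.97 ± 0.05 against -0.31 ± 0.18, adjusted p = 1.11e-05), Socs1 (0.33 ± 0.19 against -2.04 ± 0.19, adjusted p = 0.000134) and Stat3 (5.33 ± 0.12 against 3.89 ± 0.04, adjusted p = 0.000194) were among those higher. Ifngr1, which encodes a receptor subunit, was the gene that was lower (1.58 ± 0.08 against 2.28 ± 0.02, adjusted p = 0.00642). In op/op minus WT, 6 were lower and 1 higher, in either direction the same share as the 58.3% of all genes called. By direction, 28.1% of all genes were lower and 30.3% were higher. The median was -0.76 for the list and 0.16 over all genes tested. Ifngr1 was 0.93 ± 0.12 in op/op and 2.18 ± 0.14 in WT (adjusted p = 0.000444), and Irf1, a factor that interferon gamma induces, 2.07 ± 0.16 and 3.22 ± 0.21 (adjusted p = 0.00105). Ifngr2 and Cmtm6, whose product stabilizes PD-L1 at the cell surface, were lower by -1.35 and -1.19 (adjusted p = 0.00164 and 0.00178).

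Of the 8 genes of the IL-4 route to PD-L2, 6 were lower and 1 higher in op/op than in WT. Over all genes tested 58.3% were called and 28.1% were lower. Il13ra1, which pairs with the IL-4 receptor chain, was -0.79 ± 0.10 against 0.87 ± 0.35 (adjusted p = 0.00038), and Batf -1.51 ± 0.02 against 0.01 ± 0.45 (adjusted p = 0.000704). Irf4 was also lower (-1.60, adjusted p = 0.00316), with 1 of 3 op/op arrays well above background, and by -0.58 with normexp correction. Il4ra, the receptor chain itself, was higher on its brighter probe (6.39 ± 0.14 against 5.56 ± 0.09, adjusted p = 0.00199) and differed by -0.06 on its other probe (adjusted p = 0.82). Its difference of 0.83 was 0.50 with quantile normalization. In M1 minus M2, 17.5% of all genes were called and 8.72% were higher. Of this list 4 were higher, led by Socs3 (3.34 ± 0.10 against -1.72 ± 0.17, adjusted p = 5.01e-08) and Batf (2.17 ± 0.14 against -1.27 ± 0.08, adjusted p = 5.36e-07). Irf4, a transcription factor, was the 1 gene that was lower in M1 (-4.36 ± 0.35 against -1.23 ± 0.19, adjusted p = 4.21e-05), with 1 of 3 M1 arrays well above background, and the difference of -3.13 was -1.60 with normexp correction. Stat6, named after its value was seen, was not called in M1 minus M2 (2.43 ± 0.05 against 2.30 ± 0.05, adjusted p = 0.852). In op/op minus WT it was among the genes that were lower (-0.87, adjusted p = 0.0361), a call lost in 7 of 25 other settings. Il4ra in M1 minus M2 was not called on its brighter probe (0.45, adjusted p = 0.0646) and was higher on its other probe (1.95, adjusted p = 4.3e-05).

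The genes whose brightest probe ran most like each member over the 12 arrays were ranked by Pearson's r among 16453 candidate genes. This is a description: the arrays form 4 groups that share slides, so r follows mainly the group means. Cd274 was nearest to Ddx24, Psme2 and Tnfrsf1b (r = 0.996, 0.996 and 0.994), and Cd86 to Cxcl16, Nfkbia and Kcna3 (0.983, 0.975 and 0.974). Cd40 was nearest to Trim30e-ps1, Phf11a and Ctsh (0.983, 0.979 and 0.976), and Icosl, by its brighter probe, to Syt7, Egr1 and Nfkbiz (0.984, 0.979 and 0.972). Cd80, by its brighter probe, was nearest to Tgfbr3l, Clps and Rapsn (0.996, 0.995 and 0.994). Havcr2 ran with Acsl3, Cdkn1b and St8sia4 (0.976, 0.941 and 0.92). Pdcd1lg2 and Cd276, the members with the smallest range, had looser companions: Ubap2l, Ipo4 and Sema3a for Pdcd1lg2 (0.905, 0.904 and 0.899) and Gfap, Pced1a and Actl9 for Cd276 (0.868, 0.862 and 0.844). Among the members themselves the highest r was 0.87, between Cd86 and Icosl, and the lowest was -0.81, between Cd80 and Cd274.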

How the data were processed

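RNA from 12 samples in 4 groups was hybridized to one-colour Agilent arrays. Per the labels' protocols, RNA was isolated with the RNeasy Micro kit, amplified with Ovation PicoSL WTA V2 and labelled with Cy3. Agilent Feature Extraction 10.7.3.1 made the deposited intensity values, per the submitters' processing notes, with background subtracted per the file headers. In the value table the authors deposited, the log2 values track the log2 scanner signals at r = 1 after rounding, and column medians run from -1.87 to -2.46.

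Spots of a probe were averaged, log2 was taken and each array's 75th percentile subtracted. Saturated spots were kept and outlier spots left out, which removed 30 probes. Probes were renamed by accession (27509), symbol (3549) or synonym (404) with RefSeq GRCm38.p6, and 24219 kept the file's name. Testing a probe required a well-above-background call on all 3 arrays of either group compared. limma 3.58.1 (R 4.3.3) fitted all 12 arrays in 4 groups without covariates, with Benjamini-Hochberg adjustment over every tested probe and calls under 0.05. A gene was counted by its brightest probe. Motifs were searched and figures drawn with Python and matplotlib. The fit was tested on simulated data.

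All members are named with every probe, up to 4 genes per pathway list and comparison by smallest p, and 3 companions per member by correlation. The members and lists were chosen with earlier results of these data known. Depth is not defined for arrays, and their number limits the precision. The exon or UTR position of the probes was not used here, because the files' mm9 genome was not given. Alternatives were the deposited values, normexp background (offset 50), no filter, quantile normalization, a gene's mean over probes, fits to only the 2 groups, a trended robust eBayes, array weights, a replicate block, a 2-fold threshold, slide as a term and leaving out each array. Because WT replicate 1 sat alone on its slide, slide as a term gave the same results as leaving that array out. Slide as a random block (statmod 1.5.0), median centring and the dimmer probes were added after the data were seen. A gene of the interferon gamma list and a motif are not reported here.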

Additional observations from a re-analysis of the deposited data

How the results depend on the processing

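The count of member genes called in op/op minus WT was 7, and 4 (1 higher, 3 lower) with the mean of a gene's probes. Over leaving out each array the counts were 6 to 7 in op/op minus WT, 4 to 5 in M1 minus M2 and WT minus M1, 5 to 7 in WT minus M2, 5 in op/op minus M1 and 5 to 6 in op/op minus M2. With the dimmer probes, 7 differences turned sign: Cd80 to -1.02 (op/op minus WT), -0.68 (WT minus M1), -0.05 (WT minus M2), -1.71 (op/op minus M1) and -1.08 (op/op minus M2), Icosl to 0.85 (op/op minus WT) and Pdcd1lg2 to -1.11 (op/op minus M1).

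The mean of probes also turned the called differences of Tnfrsf14 (-0.36) and Relb (-0.19) in op/op minus WT. The other reversals concerned differences that were not called. With normexp these were Cd40 in op/op minus WT (0.01), Ctla4 in M1 minus M2 (0), Cd276 in WT minus M1 (0.04), Havcr2 in op/op minus M1 (0.03) and Pdcd1lg2 in op/op minus M2 (0.05). With quantile normalization they were the dimmer Pdcd1lg2 probe (-0.03) and Fgl2 (-0.04) in op/op minus WT, Pdcd1lg2 (-0.15) and Cd276 (-0.23) in op/op minus M1, and Cd276 in op/op minus M2 (-0.46). The mean of probes turned Icos in M1 minus M2 (-0.37) and Pdcd1lg2 in op/op minus M1 (-0.40). Array weights turned Fgl2 (-0.20) and the dimmer Cd80 probe in WT minus M2 (0.14). Leaving out arrays gave ranges across 0 for Cd40 (-0.59 to 0.03), the dimmer Pdcd1lg2 probe (-0.28 to 0.24) and Fgl2 (-0.17 to 0.33) in op/op minus WT, Tnfsf13b (-0.14 to 0.17) and Ctla4 (-0.36 to 0.01) in M1 minus M2, the dimmer Cd80 probe in WT minus M2 (-0.22 to 0.04) and Cd276 in op/op minus M2 (-0.11 to 0.27). The cause was not tested.

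List counts in op/op minus WT moved for the other ligands (11 to 6 with only the 2 groups compared, 7 at 2-fold, and 6 to 10 over leaving out each array), the NF-kB route (12 to 7 with only the 2 groups and 5 at 2-fold), the TNF-family ligands (2 to 4 with normexp) and the T-cell receptors (4 to 2 with array weights). In M1 minus M2 they moved for the T-cell receptors (1 to 2 with no filter or array weights) and the interferon gamma route (8 to 4 at 2-fold). Counts over all probes were 22753 in op/op minus WT and 6986 in M1 minus M2, and 13506 and 14483 with only the 2 groups compared. They were 10474 and 4389 at 2-fold, 15218 in M1 minus M2 with array weights, and 15737 and 16428 at 2-fold for WT minus M1 and WT minus M2 in place of 24161 and 25395. Of the calls in op/op minus WT 49.1% were higher, and 61% with normexp. Quantile normalization moved the median of all probes from 0.26 to -0.07 in op/op minus M1.

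Deviations of same-numbered arrays from their group means gave r from -0.14 to 0.12 in op/op with WT and M1 with M2. Different-numbered arrays ran from -0.24 to 0.27. With so few arrays in each group these values cannot decide whether the replicate number pairs samples. The replicate block gave 4 calls in place of 2 among the TNF-family ligands, turned Cd276 in op/op minus M2 (-0.01), left 7 member genes called in op/op minus WT, and ended the calls of the dimmer Icosl probe (adjusted p = 0.0514), Icos (0.0776), Lgals9 (0.0709), Tnfrsf14 (0.0823), Traf1 (0.0804), Lgals3 (0.0816) and Stat6 (0.0569) there and of Vsir (0.07) and Cd200r1 (0.0778) in M1 minus M2. It brought Tnfsf15 (0.0454) and Cd70 (0.0432) in op/op minus WT and Cd40 in op/op minus M2 (0.0388) past the threshold.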
